A study of Mus musculus with 6 samples.

Results

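Respiratory complex I was followed through the genes named for it in newborn mouse hearts with and without a cardiac knockout of Kdm5b, a demethylase of lysine 4 of histone H3. All protein-coding genes whose names begin with Nduf were taken, which gave 48 of the 21970 protein-coding genes and 56748 genes in all in the deposited table. Of these, 40 were counted as subunits and 8, named Ndufaf, as assembly factors. The hearts were taken at postnatal day 1. The cKO group held 3 samples from mice lacking Kdm5b in the heart, and the FF group held 3 samples from control mice with the genotype FF, which their titles call Flox. The Cre line and promoter, the strain and the sex of the mice, and whether hearts were pooled, are not given in the labels. The labels number the samples without stating that each is a separate animal, and p-values therefore cover the spread among these samples, which may be technical.

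Complex I is the entry point of electrons from NADH into the respiratory chain of the inner mitochondrial membrane. Its matrix arm has an N module that oxidizes NADH and a Q module that passes the electrons to ubiquinone, and its membrane arm, built from the ND1, ND2, ND4 and ND5 modules, pumps protons. A small set of core subunits carries the chemistry, some of them encoded by the mitochondrial genome, while a larger set of nuclear accessory subunits surrounds them, and assembly factors help to build the enzyme without staying in it. Heart muscle is among the tissues richest in this enzyme. The roles given below were worked out largely in the human and bovine enzymes.

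Levels were given as FPKM, a fragment count scaled to gene length and library size. The libraries held 15658893 to 20339926 reads assigned to genes. FF replicate 3 stood apart, with correlations of 0.88 to 0.909 with the other libraries across genes, against 0.954 to 0.984 among those 5. Summed thymocyte markers came to 0.429 to 0.960 FPKM in the cKO libraries, and to 1.56, 0.640 and 231 FPKM in FF replicates 1, 2 and 3. Xist was at 63.0, 27.1 and 0.0744 FPKM in cKO replicates 1, 2 and 3. In FF replicates 1, 2 and 3 it was at 61.6, 54.3 and 0.00873 FPKM. The Y-linked Eif2s3y was highest in cKO replicate 3, at 19.5 FPKM, and FF replicate 3, at 4.02 FPKM. The sexes may thus be mixed, and leaving out FF replicate 3 kept a library nearly without Xist in the cKO group alone. The part of sex in the differences was not tested. Summed heart muscle markers (Tnnt2, Myh6, Actc1, Tnni3, Ttn, Ryr2, Myl2 and Pln) came to 13420 to 15494 FPKM in cKO hearts and 13096 to 14771 FPKM in FF hearts. Kdm5b itself was at 2.80, 3.03 and 2.75 FPKM in cKO hearts and at 3.19, 3.25 and 3.92 FPKM in FF hearts. Every cKO value lay below every FF value, but the log2 difference did not pass, at -0.20 with 6 libraries (limma adjusted p = 0.447) and -0.13 without FF replicate 3 (limma adjusted p = 0.403). The deleted part of the gene is not given in the labels, so a count over the whole gene is a weak check of the knockout.

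Messages for 32 of 39 tested complex I subunits were lower in every cKO heart than in FF replicates 1 and 2, against 26.9% of genes. Of the modules, ND1 in the membrane arm had the lowest median log2 difference, -0.77 without FF replicate 3. With the 6 libraries together, no subunit passed the threshold, an adjusted p under 0.05 in limma after Benjamini-Hochberg adjustment over all 12678 genes tested, where 0.0947% of genes were called lower and 0.071% higher; 35 of 39 had a log2 difference below 0, against 49.3% of genes. At an unadjusted p under 0.05, 15 of the 39 subunits tested were lower and 0 were higher, against 9.55% and 8.39% of all genes. Without FF replicate 3, 19 of 39 subunits fell and 0 rose, that is 48.7%, against 7.12% of 12631 genes called lower and 6.47% called higher. In that fit 36 of 39 had a log2 difference below 0 (51.3% of genes), and 27 were lower at an unadjusted p under 0.05 (17.6% of genes). The median log2 difference, cKO minus FF in units of log2(FPKM + 1), was -0.32 over the subunits with 6 libraries and -0.46 without FF replicate 3, where the medians of all genes were 0.01 and -0.01. The count of 19 became 0 with no filter on low genes. It became 1 when cKO replicate 3, which had almost no Xist, was also left out. It also rested on both remaining FF libraries: leaving out FF replicate 1 or FF replicate 2 as well gave 0 calls, leaving out cKO replicates 1, 2 or 3 gave 25, 3 and 1, and the median stayed between -0.56 and -0.38 in these 5 fits.

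When the values were simply ranked, the groups overlapped in most subunits with 6 libraries and separated in most without FF replicate 3. In 14 of 39 subunits (35.9%) every cKO value lay below every FF value, and in 1, Ndufs1, every cKO value lay above, against 14.5% and 13.5% of all genes. With FF replicate 3 left out, 32 of 39 (82.1%) had every cKO value below both FF values, against 26.9% of genes. FF replicate 3 was below both other FF libraries in 34 subunits; it lay above all cKO values in 16, within their range in 14 and below them in 9. Relative to the mean of FF replicates 1 and 2, the median subunit stood at -0.30, -0.53 and -0.61 (log2) in cKO replicates 1, 2 and 3 and at -0.38 in FF replicate 3. The cKO libraries thus differed among themselves, with cKO replicate 1 the highest of them in 34 subunits and cKO replicate 3 the lowest in 33. In whole hearts, fewer cells of a type and less RNA per cell cannot be told apart.

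**Figure D1:**
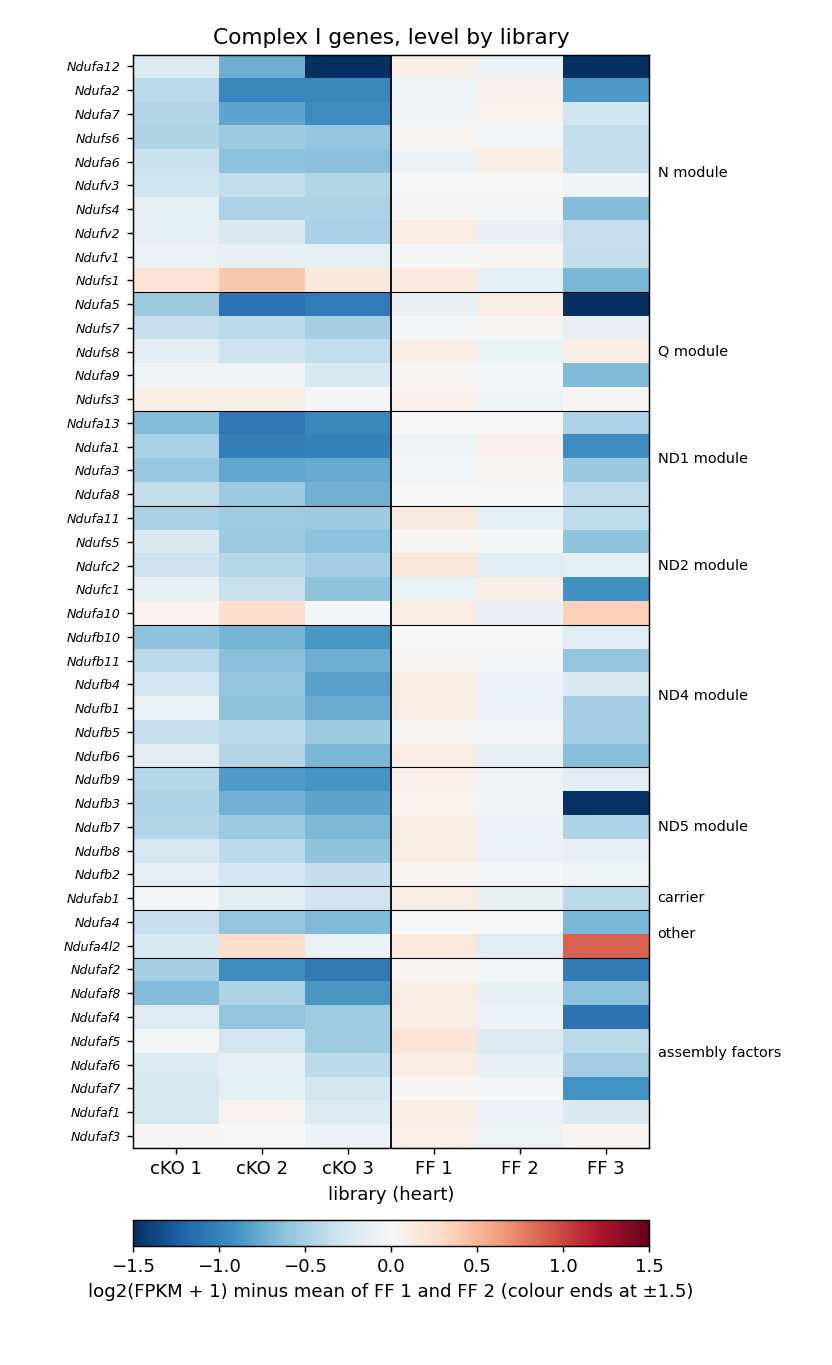
Level of each of 46 tested complex I genes (lines, by module) in each library (columns, cKO left of FF), as log2(FPKM + 1) minus the mean of FF 1 and FF 2; blue is lower and red higher, and colours end at ±1.5. Most subunits are blue in the 3 cKO libraries and also, to a varying degree, in FF 3, while Ndufs1 is red in the cKO libraries.

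Promoter sequences were examined because the subunits are encoded on many chromosomes and 19 of them were called lower together without FF replicate 3. Of the 48 genes, 41 had a promoter in the RefSeq table (build GRCm38.p6), and the 250 bases before the gene start were searched on both strands for 6 short motifs. The NRF1 motif, written GCGC, then any base, then TGCGC, is bound by a regulator of nuclear genes for mitochondrial proteins. It was found in 7 of 41 genes (17.1%), against 4.23% of the 27025 genes with a promoter in the table and 9.66% of the 8891 tested protein-coding genes among them. A gene was counted when any of its promoters held the motif. The NRF1 motif stood in 4 of the 19 genes with a promoter that were called lower without FF replicate 3 and in 3 of the 22 others. The CRE motif TGACGTCA was found in 3 of the 41 genes (7.32%, against 1.77% and 2.97%). The SP and KLF motif GGGCGG was in 19 (46.3%, against 35.4% and 66.0%), and the ETS motif CCGGAAG in 5 (12.2%, against 7.83% and 16.2%). The ERR motif TCAAGGTCA and the YY1 motif AAGATGGC were in none of the 41 genes. The promoters of 4 genes are printed with the matches in capitals, each on the strand of its gene. Ndufa8 and Ndufs6, which fell without FF replicate 3, and Ndufa11, which fell as well, hold the NRF1 motif, and Ndufa10, which did not pass the test, holds the CRE motif without it.
Ndufa8, chr2:36049339-36049588, minus strand: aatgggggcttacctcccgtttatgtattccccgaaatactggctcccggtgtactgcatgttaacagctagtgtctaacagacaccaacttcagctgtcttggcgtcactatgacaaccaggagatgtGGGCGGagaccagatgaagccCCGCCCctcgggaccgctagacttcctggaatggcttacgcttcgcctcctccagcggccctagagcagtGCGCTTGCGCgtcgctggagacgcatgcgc
Ndufs6, chr13:73328483-73328732, minus strand: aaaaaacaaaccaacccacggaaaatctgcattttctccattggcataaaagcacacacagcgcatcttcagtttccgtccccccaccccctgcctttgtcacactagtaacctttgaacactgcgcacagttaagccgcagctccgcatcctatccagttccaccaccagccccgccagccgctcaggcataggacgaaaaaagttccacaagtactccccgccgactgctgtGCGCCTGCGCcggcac
Ndufa11, chr17:56717512-56717761, plus strand: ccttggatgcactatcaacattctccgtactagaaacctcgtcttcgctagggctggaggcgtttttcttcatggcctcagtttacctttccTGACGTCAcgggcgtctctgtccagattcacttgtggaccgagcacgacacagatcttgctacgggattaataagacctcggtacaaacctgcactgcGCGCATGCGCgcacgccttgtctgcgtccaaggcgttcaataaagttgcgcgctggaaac
Ndufa10, chr1:92473759-92474008, minus strand: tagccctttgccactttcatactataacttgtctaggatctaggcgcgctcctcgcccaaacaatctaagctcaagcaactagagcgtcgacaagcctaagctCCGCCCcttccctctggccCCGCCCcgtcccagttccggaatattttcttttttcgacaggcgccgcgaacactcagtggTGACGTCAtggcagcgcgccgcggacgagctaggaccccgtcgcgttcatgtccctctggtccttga
The coordinates are those of GRCm38.p6 and differ from the positions in the deposited table. The first base of the NRF1 match lies 30 bases before the start of Ndufa8, 16 before that of Ndufs6 and 60 before that of Ndufa11. The CRE match begins 158 bases before Ndufa11 and 67 bases before Ndufa10, and the other capitals are the SP and KLF motif, written CCGCCC where it lies on the opposite strand. No printed matches overlap. These matches describe letters in the window and do not show binding.

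The core and the accessory subunits of the enzyme gave different values. Of the 7 nuclear core subunits, 1 fell without FF replicate 3 (14.3%, against 7.12% of all genes), with a median log2 difference of -0.12. Of the 30 accessory subunits, taken as those in a module together with Ndufab1, 17 fell (56.7%), with a median of -0.52. Every cKO value lay below FF replicates 1 and 2 in 4 of the 7 core subunits and 27 of the 30 accessory subunits, against 26.9% of genes. With 6 libraries the medians were 0.00 for the core and -0.39 for the accessory subunits, and 2 of 7 and 12 of 30 had groups that did not overlap with cKO lower, against 14.5% of genes. The difference between the classes was not tested, and their gene lengths differed, with medians of 2178 and 1234 bases.

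Ndufs7, which carries the last iron-sulfur cluster before ubiquinone, was the core subunit that fell (ENSMUSG00000020153, chromosome 10, 80084955 to 80092628, plus strand of the deposited table). It was at 55.5, 53.2 and 49.7 FPKM in cKO hearts and at 69.9, 71.9 and 65.4 FPKM in FF hearts. The groups did not overlap, and FF replicate 3 stood with its group. The log2 difference was -0.38 with 6 libraries (SE 0.11, limma adjusted p = 0.167) and -0.42 without FF replicate 3 (SE 0.09, limma adjusted p = 0.036). Ndufs8, which holds a pair of iron-sulfur clusters beside it, was at 75.7, 68.0 and 65.1 FPKM in cKO hearts and at 90.2, 79.1 and 90.4 FPKM in FF hearts. Its groups did not overlap either, but it missed the threshold in both fits (log2 difference -0.31, limma adjusted p = 0.263, and -0.28, limma adjusted p = 0.136).

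Ndufs3, Ndufv1 and Ndufv2 did not pass the test in either fit. Ndufs3, a structural subunit of the Q module, was at 99.0, 99.8 and 92.3 FPKM in cKO hearts and at 98.3, 88.8 and 94.7 FPKM in FF hearts. Its groups overlapped, with a log2 difference of 0.05 in both fits (without FF replicate 3, 95% interval -0.18 to 0.29). Ndufv1, which binds FMN and NADH, was at 169, 168 and 163 FPKM in cKO hearts and at 178, 185 and 141 FPKM in FF hearts. The cKO values lay between those of FF replicate 3 and the other FF libraries, and the log2 difference was -0.0032 with 6 libraries and -0.12 without FF replicate 3 (95% interval -0.35 to 0.11). Ndufv2, an iron-sulfur subunit beside it, had a difference of -0.17 with 6 libraries and -0.28 without FF replicate 3 (95% interval -0.61 to 0.04).

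Ndufs1, the largest iron-sulfur subunit, went the other way in value without passing the test. It was at 58.8, 67.1 and 56.8 FPKM in cKO hearts and at 55.9, 45.4 and 30.9 FPKM in FF hearts. All cKO values lay above all FF values, although cKO replicate 3 and FF replicate 1 nearly met. The log2 difference was 0.50 with 6 libraries (SE 0.22, limma adjusted p = 0.309) and 0.27 without FF replicate 3 (SE 0.13, limma adjusted p = 0.191). Its gene length, 8086 bases, was the greatest of the tested Nduf genes. Its span overlaps 3 other genes with a mean of 1 FPKM or more, Eef1b2 among them. Whether reads were shared with them was not tested.

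**Figure D2:**
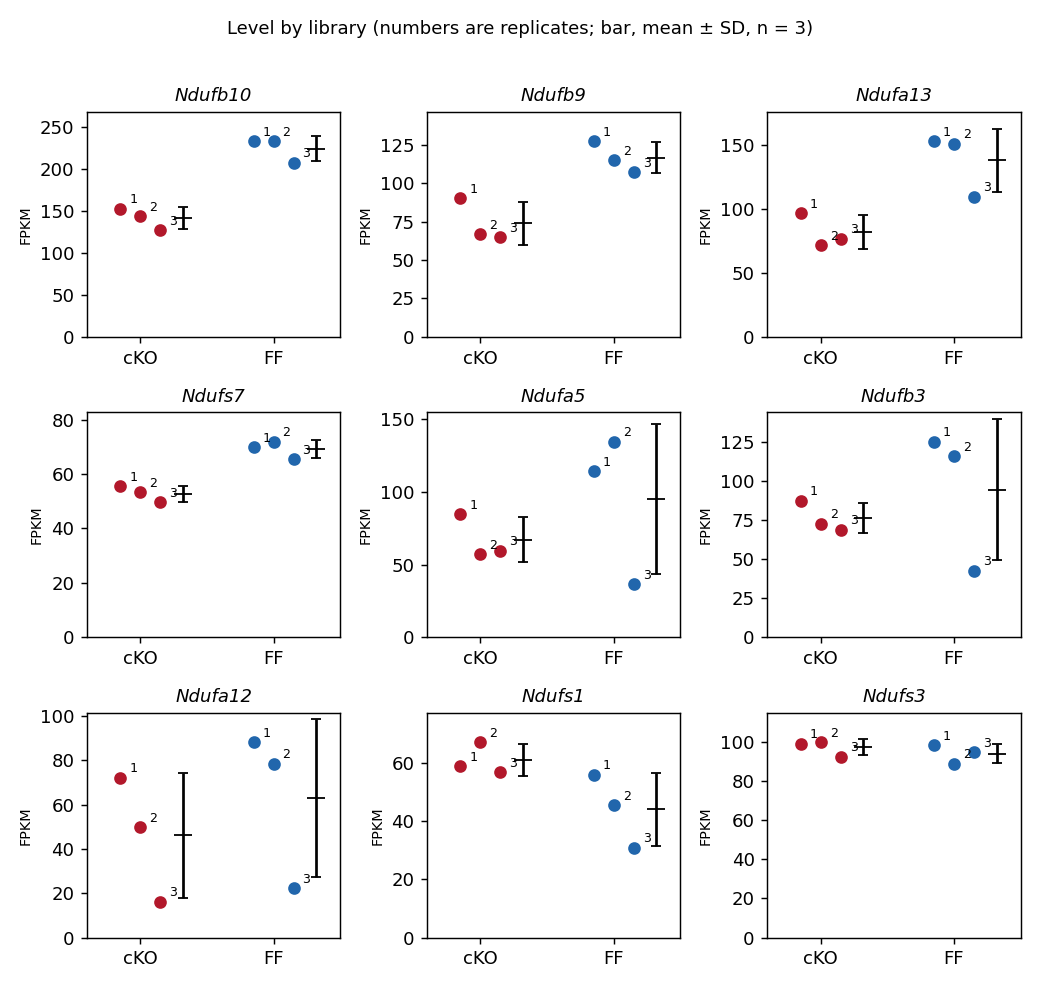
FPKM of 9 subunits in each library (red points, cKO; blue points, FF; numbers are replicates), with the mean ± SD of each group as a black bar (n = 3 each) and axes starting at 0. Ndufb10, Ndufb9, Ndufa13 and Ndufs7 separate the groups, Ndufa5 and Ndufb3 do so only without FF 3, and Ndufs3 does not.

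In the membrane arm, 11 of the 20 nuclear subunits fell without FF replicate 3, against 7.12% of all genes, with a median of -0.53. The log2 difference was below 0 in 20 of 20 with 6 libraries and in 19 of 20 without FF replicate 3. Of all genes, 49.3% and 51.3% were below 0 in these fits. The ND1 module joins the membrane arm to the Q module, and each of its 4 nuclear subunits fell without FF replicate 3. Ndufa13, also known as GRIM-19 (ENSMUSG00000036199, chromosome 8, 70346830 to 70355208, minus strand), was at 96.9, 71.9 and 77.0 FPKM in cKO hearts and at 153, 151 and 110 FPKM in FF hearts. The groups did not overlap, though FF replicate 3 was the FF library nearest to the cKO values. The log2 difference was -0.74 with 6 libraries (SE 0.19, limma adjusted p = 0.126) and -0.90 without FF replicate 3 (SE 0.14, limma adjusted p = 0.0149). Ndufa3, a small membrane subunit, had the smallest p of the Nduf genes without FF replicate 3. It was at 48.3, 41.6 and 42.5 FPKM in cKO hearts and at 70.3, 74.5 and 48.7 FPKM in FF hearts. Here FF replicate 3 lay just above cKO replicate 1, and the difference was -0.52 with 6 libraries (limma adjusted p = 0.226) and -0.70 without that library (limma adjusted p = 0.0133).

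Ndufa1, a small membrane subunit encoded on the X chromosome, was at 132, 90.6 and 91.4 FPKM in cKO hearts and at 176, 195 and 96.5 FPKM in FF hearts. FF replicate 3 lay within the cKO range, and the log2 difference was -0.53 with 6 libraries (limma adjusted p = 0.413) and -0.84 without it (limma adjusted p = 0.0317). Ndufa8, a subunit on the intermembrane-space side whose promoter is printed above, was at 184, 162 and 142 FPKM in cKO hearts and at 234, 237 and 181 FPKM in FF hearts. Its groups overlapped through cKO replicate 1 and FF replicate 3, and the difference was -0.41 with 6 libraries (limma adjusted p = 0.259) and -0.54 without FF replicate 3 (limma adjusted p = 0.0425).

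Of the 5 nuclear subunits of the ND2 module, 1 fell without FF replicate 3, against 7.12% of all genes. That was Ndufa11, a membrane protein related to the translocase subunit Tim17, at 71.6, 69.4 and 68.9 FPKM in cKO hearts and at 110, 92.1 and 77.5 FPKM in FF hearts. The cKO values were tightly grouped below all FF values, and the log2 difference was -0.40 with 6 libraries (limma adjusted p = 0.251) and -0.52 without FF replicate 3 (limma adjusted p = 0.0306). Ndufc2, at 186, 171 and 161 FPKM in cKO hearts and 260, 204 and 210 FPKM in FF hearts, also had groups that did not overlap, but missed the threshold, at -0.37 with 6 libraries (limma adjusted p = 0.248) and -0.41 without FF replicate 3 (limma adjusted p = 0.0853). Ndufa10, an accessory subunit of the nucleoside kinase family, was at 110, 126 and 104 FPKM in cKO hearts and at 114, 97.7 and 135 FPKM in FF hearts. Its groups overlapped, with a log2 difference of -0.03 with 6 libraries and 0.09 without FF replicate 3 (95% interval -0.21 to 0.39).

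In the ND4 module, 3 of 6 subunits fell without FF replicate 3, against 7.12% of all genes. Ndufb10, which faces the intermembrane space (ENSMUSG00000040048, chromosome 17, 24941034 to 24943452, minus strand), came nearest to the threshold with all libraries. It was at 153, 144 and 127 FPKM in cKO hearts and at 233, 233 and 207 FPKM in FF hearts. Its groups were far apart and FF replicate 3 stood with the other FF libraries, and means were 141 ± 13.2 FPKM in cKO and 224 ± 14.8 FPKM in FF hearts (SD, n = 3 each). The limma adjusted p was 0.0771 with 6 libraries and 0.0157 without FF replicate 3, at log2 differences of -0.67 and -0.72. The X-linked Ndufb11, a membrane-spanning subunit, was at 183, 157 and 146 FPKM in cKO hearts and at 247, 239 and 161 FPKM in FF hearts. FF replicate 3 lay within the cKO range, and the log2 difference was -0.39 with it (limma adjusted p = 0.369) and -0.59 without it (limma adjusted p = 0.0318). Ndufb5 was the third, with a log2 difference of -0.26 with 6 libraries (limma adjusted p = 0.486) and -0.43 without FF replicate 3 (limma adjusted p = 0.0365). Ndufb6, with the smallest fall of the module, was at 141, 116 and 97.5 FPKM in cKO hearts and at 170, 145 and 101 FPKM in FF hearts. It passed in neither fit, at -0.22 with 6 libraries (limma adjusted p = 0.674) and -0.43 without FF replicate 3 (limma adjusted p = 0.128).

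In the ND5 module at the far end of the membrane arm, Ndufb9, Ndufb3 and Ndufb7 fell among 5 without FF replicate 3. Of all genes, 7.12% were called lower in that fit. Ndufb9, a protein of the LYR family that holds an acyl carrier protein, was at 90.0, 66.7 and 64.9 FPKM in cKO hearts and at 127, 115 and 107 FPKM in FF hearts. The groups did not overlap, and the log2 difference was -0.66 with 6 libraries (limma adjusted p = 0.121) and -0.72 without FF replicate 3 (limma adjusted p = 0.0335). Ndufb3, a small membrane subunit, was at 87.6, 72.7 and 69.1 FPKM in cKO hearts and at 126, 116 and 42.7 FPKM in FF hearts. FF replicate 3 was the lowest of the 6 libraries while the other FF libraries were the highest, and the log2 difference was -0.17 with it (limma adjusted p = 0.865) and -0.66 without it (limma adjusted p = 0.0255). Ndufb7, on the intermembrane-space side, had a difference of -0.40 with 6 libraries (limma adjusted p = 0.291) and -0.55 without FF replicate 3 (limma adjusted p = 0.0264). Ndufb2 had the lowest mean of the tested Nduf genes, at 1.60, 1.31 and 1.20 FPKM in cKO hearts and 1.88, 1.77 and 1.68 FPKM in FF hearts. Every cKO value lay below every FF value, with a log2 difference of -0.23 with 6 libraries (limma adjusted p = 0.44) and -0.26 without FF replicate 3 (limma adjusted p = 0.232). Its level rests on 146 to 181 reads per library and on a listed gene length of 5628 bases. Its span also overlaps Braf, and whether reads were shared was not tested.

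**Figure D3:**
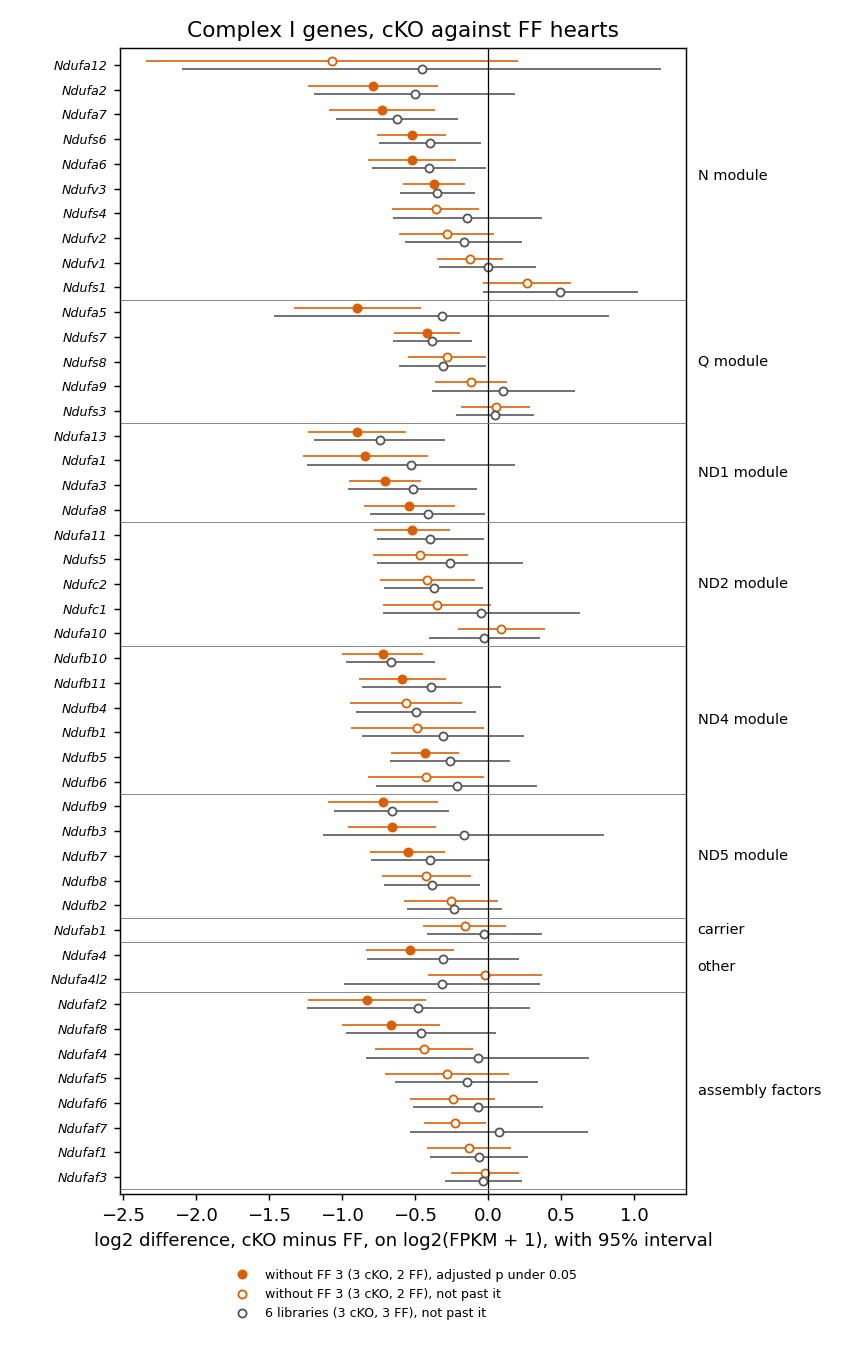
Log2 difference, cKO minus FF, of 46 tested genes by module, with 95% intervals from limma; orange is the fit without FF 3 and grey the fit with 6 libraries, and filled points passed an adjusted p of 0.05. All 21 filled points lie below 0 and belong to the fit without FF 3, and the intervals of Ndufa5, Ndufb3 and Ndufa12 are wide with 6 libraries.

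The N module, which holds the NADH site, had 5 of 10 subunits called lower without FF replicate 3, against 7.12% of all genes. They were Ndufa2, Ndufa7, Ndufs6, Ndufa6 and Ndufv3. Ndufa2, a subunit with a thioredoxin fold, was at 101, 67.3 and 67.1 FPKM in cKO hearts and at 128, 139 and 73.1 FPKM in FF hearts. FF replicate 3 lay within the cKO range, and the log2 difference was -0.50 with it (limma adjusted p = 0.422) and -0.79 without it (limma adjusted p = 0.0403). Ndufa7 was at 39.1, 30.4 and 27.4 FPKM in cKO hearts and at 51.5, 55.7 and 43.2 FPKM in FF hearts. Its groups did not overlap, and the difference was -0.62 with 6 libraries (limma adjusted p = 0.149) and -0.73 without FF replicate 3 (limma adjusted p = 0.0309). Ndufs6, a zinc-binding subunit whose promoter is printed above, was at 112, 105 and 102 FPKM in cKO hearts and at 158, 149 and 118 FPKM in FF hearts. Its groups did not overlap either, and the difference was -0.40 with 6 libraries (limma adjusted p = 0.231) and -0.52 without FF replicate 3 (limma adjusted p = 0.0244).

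Ndufa12, an accessory subunit at the joint of the N and Q modules, had the largest standard error of the tested Nduf genes, 0.69 with 6 libraries. It was at 72.2, 49.7 and 16.3 FPKM in cKO hearts and at 88.2, 78.3 and 22.4 FPKM in FF hearts. The third library of each group was low, and the groups overlapped. The log2 difference was -0.46 with 6 libraries (limma adjusted p = 0.772) and -1.07 without FF replicate 3, with a 95% interval from -2.34 to 0.20 (limma adjusted p = 0.209). In the Q module, the accessory subunit Ndufa5 was at 84.8, 57.2 and 59.6 FPKM in cKO hearts and at 114, 135 and 36.5 FPKM in FF hearts. FF replicate 3 was the lowest library and the other FF libraries the highest. The log2 difference was -0.32 with 6 libraries (SE 0.48, limma adjusted p = 0.772) and -0.90 without FF replicate 3 (SE 0.18, limma adjusted p = 0.0289).

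A further 4 genes named Nduf were placed in no module. Ndufa4, now placed in complex IV, the cytochrome c oxidase, was at 221, 186 and 177 FPKM in cKO hearts and at 281, 283 and 175 FPKM in FF hearts. FF replicate 3 was the lowest library of all, and the log2 difference was -0.31 with it (limma adjusted p = 0.516) and -0.54 without it (limma adjusted p = 0.0395). Its paralogue Ndufa4l2, known for its induction by hypoxia, was at 12.7, 18.0 and 13.9 FPKM in cKO hearts and at 16.7, 13.4 and 28.4 FPKM in FF hearts. The groups overlapped, FF replicate 3 was the highest library, and the difference was -0.32 with it (limma adjusted p = 0.603) and -0.02 without it (95% interval -0.41 to 0.37). Ndufab1, the mitochondrial acyl carrier protein that also serves fatty acid synthesis, was at 20.7, 18.7 and 16.8 FPKM in cKO hearts and at 22.7, 19.4 and 15.6 FPKM in FF hearts, overlapping, with a difference of -0.02 with 6 libraries and -0.16 without FF replicate 3 (95% interval -0.44 to 0.13). Ndufb11b was listed at 0 in all libraries and was not tested.

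The assembly factors were lower in level than the subunits, with a median over genes of the mean FPKM of 8.03, against 81.2 for the subunits. No Ndufaf gene passed with 6 libraries (median log2 difference -0.07, smallest limma adjusted p 0.326, 0 of 8 at an unadjusted p under 0.05), and 2 of 8 fell without FF replicate 3 (against 7.12% of all genes; median -0.26). No factor had groups apart with 6 libraries, against 14.5% of genes, and 5 of 8 (62.5%) had every cKO value below FF replicates 1 and 2, against 26.9%. Ndufaf2, a paralogue of Ndufa12 that binds late assembly intermediates, was at 4.37, 2.97 and 2.61 FPKM in cKO hearts and at 6.71, 6.42 and 2.63 FPKM in FF hearts. FF replicate 3 lay with the lowest cKO values, and the log2 difference was -0.48 with it (limma adjusted p = 0.492) and -0.83 without it (limma adjusted p = 0.0295). Ndufaf8, the partner of the hydroxylase Ndufaf5, was at 7.35, 8.49 and 6.13 FPKM in cKO hearts and at 13.2, 11.1 and 7.58 FPKM in FF hearts. Again FF replicate 3 lay within the cKO range, and the difference was -0.46 with it (limma adjusted p = 0.326) and -0.66 without it (limma adjusted p = 0.0317). Both calls were lost with no filter on low genes, and when FF replicate 1, FF replicate 2 or cKO replicate 3 was left out as well, and 1 was lost without cKO replicate 2.

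The other 6 factors did not pass in either fit. Ndufaf1, part of the complex that assembles the ND2 module, was at 23.0, 28.2 and 23.4 FPKM in cKO hearts and at 29.0, 25.6 and 23.4 FPKM in FF hearts. Its groups overlapped, with a log2 difference of -0.06 with 6 libraries and -0.13 without FF replicate 3. Ndufaf3 and Ndufaf4 act together on the Q module. Ndufaf3 had log2 differences of -0.03 with 6 libraries and -0.02 without FF replicate 3. Ndufaf4 was at 21.0, 15.7 and 16.4 FPKM in cKO hearts and at 25.8, 22.7 and 10.7 FPKM in FF hearts, where FF replicate 3 was the lowest library. Its log2 difference was -0.07 with that library and -0.44 without it. Ndufaf5, which hydroxylates Ndufs7, had one of -0.15 with 6 libraries and -0.28 without FF replicate 3, and Ndufaf6 had -0.07 and -0.24 in the same fits. Ndufaf7, a methyltransferase, changed sign, at 0.08 with 6 libraries and -0.22 without FF replicate 3. Of 13 further assembly factors from a list drawn up for the enzyme (Acad9, Ecsit, Timmdc1, Tmem126a, Tmem126b, Tmem186, Foxred1, Nubpl, Tmem70, Dmac1, Lyrm2, Aifm1 and Chchd4), 0 passed with 6 libraries. Without FF replicate 3, 1 fell and 1 rose, with a median of -0.07, where 13.6% of all genes were called in either direction. Tmem126a, which acts in membrane arm assembly, had a log2 difference of -0.23 with 6 libraries (limma adjusted p = 0.634) and -0.49 without FF replicate 3 (limma adjusted p = 0.0201). Tmem186, of the complex that assembles the ND2 module, had one of 0.46 (limma adjusted p = 0.109) and 0.45 (limma adjusted p = 0.0328) in the same fits and was at 7.18, 7.04 and 7.76 FPKM in cKO hearts and at 5.41, 4.83 and 4.87 FPKM in FF hearts. In Tmem186 the groups did not overlap, with FF replicate 3 beside the other FF libraries.

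The 7 core subunits encoded by the mitochondrial genome had no call in either fit, with a median log2 difference of -0.32 with 6 libraries and -0.68 without FF replicate 3, where 7 of 7 were below 0. Their summed level was 57067, 43309 and 41875 FPKM in cKO hearts and 70208, 58396 and 51788 FPKM in FF hearts. cKO replicate 1 stood apart from the other cKO libraries and above FF replicate 3, so the groups overlapped. The smallest adjusted p without FF replicate 3 belonged to mt-Nd4, with a difference of -0.71 (limma adjusted p = 0.0776), and to mt-Nd6, with -0.91 (limma adjusted p = 0.0802). The share of all reads that came from the mitochondrial genome was 15.7%, 13.5% and 12.8% in cKO hearts and 19.0%, 18.0% and 19.0% in FF hearts.

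Nuclear subunits of complexes II to V were measured beside them. Of 41 such genes, 0 passed with 6 libraries and 11 fell and 0 rose without FF replicate 3, against 7.12% of all genes called lower and 6.47% called higher, with medians of -0.20 and -0.35. The 11 were Uqcrb, Uqcrq and Uqcr11 of complex III, Cox4i1, Cox5b, Cox6c, Cox7a1 and Cox8b of complex IV, and Atp5e, Atp5g1 and Atp5j of the ATP synthase. Of the 41, 33 had a log2 difference below 0 with 6 libraries (49.3% of genes) and 31 without FF replicate 3 (51.3%). Sdha, Atp5a1 and Atp5b were among those above 0 and did not pass. They were at 0.34, 0.20 and 0.21 with 6 libraries and 0.18, 0.19 and 0.21 without FF replicate 3. Among 16 other mitochondrial proteins, such as citrate synthase, porins and import receptors, 0 passed in either fit, with medians of 0.05 and -0.04.

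Markers of other cell types were read in the same fits, in which 0 markers passed with 6 libraries. The calls below are those without FF replicate 3, where 7.12% of all genes were called lower and 6.47% higher. Of 8 heart muscle markers Myl2 and Pln fell without FF replicate 3; the 8 had medians of 0.14 with 6 libraries and 0.04 without FF replicate 3, and FF replicate 3 stood at -0.43 on them relative to the other FF libraries. The 4 atrial markers (Nppa, Myl7, Sln and Myl4) summed to 1174, 549 and 1525 FPKM in cKO hearts and to 137, 599 and 1735 FPKM in FF hearts. Without FF replicate 3 their median log2 difference was 1.67, 4 of 4 were above 0, and Nppa rose (2.17, limma adjusted p = 0.0374). Of 5 tested erythroid markers Hba-a2 and Alas2 rose (median 0.47), and the list summed to 890 to 1095 FPKM in cKO hearts and 752 to 1553 FPKM in FF hearts. Of 3 tested skeletal muscle markers Acta1 and Ckm rose (median 0.51), with sums of 372 to 442 FPKM in cKO hearts and 261 to 452 FPKM in FF hearts. Of 6 fibroblast markers Dcn fell and Tcf21 rose (median 0.08), with sums of 317 to 444 FPKM in cKO hearts and 392 to 729 FPKM in FF hearts, and 0 of 5 endothelial markers passed. Brown fat markers summed to at most 0.106 FPKM in cKO hearts and 0.340 FPKM in FF hearts. The part of these markers in the complex I values was not tested.

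**Figure D4:**
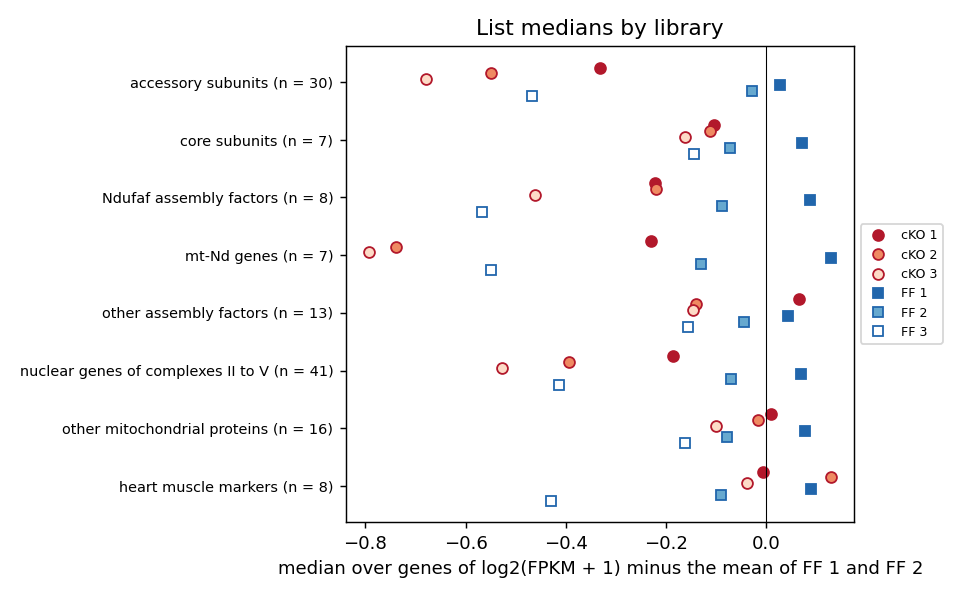
Median over the genes of each list of log2(FPKM + 1) minus the mean of FF 1 and FF 2, for each library (circles, cKO; squares, FF; FF 3 is the open square), with the number of genes in brackets. Accessory subunits lie at -0.33, -0.55 and -0.68 in the cKO libraries and at -0.47 in FF 3, while other mitochondrial proteins lie between -0.16 and 0.08 in all libraries.

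Gene length moved with the differences. Across the 39 subunits, which share the same libraries, log2 gene length and the log2 difference without FF replicate 3 had a Pearson's r of 0.568 and a Spearman's rho of 0.557, against 0.182 and 0.166 across 11081 protein-coding genes. The subunits called lower had a median length of 1092 bases, and those not called one of 2124 bases. Of all protein-coding genes of up to 1000 bases, 25.7% were called lower, against 3.93% of those over 5000 bases. In the shortest class, 7 of 10 complex I genes were called, with a median of -0.56 against -0.40 for all genes of that class. Between 1000 and 1500 bases it was 7 of 12, against 19.2%, with medians of -0.53 and -0.26. Between 1500 and 2000 bases it was 3 of 8, against 13.2%, with medians of -0.47 and -0.12. Between 2000 and 3000 bases 1 of 7 was called (9.38% of genes), between 3000 and 5000 bases 3 of 7 (6.19%), and above 5000 bases 0 of 3. The part of gene length in these differences was not tested. FF replicate 3 also moved with base composition, since its deviation from the other FF libraries rose with GC content over all genes (Spearman's rho 0.639) and over the complex I genes (0.44).

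**Figure D5:**
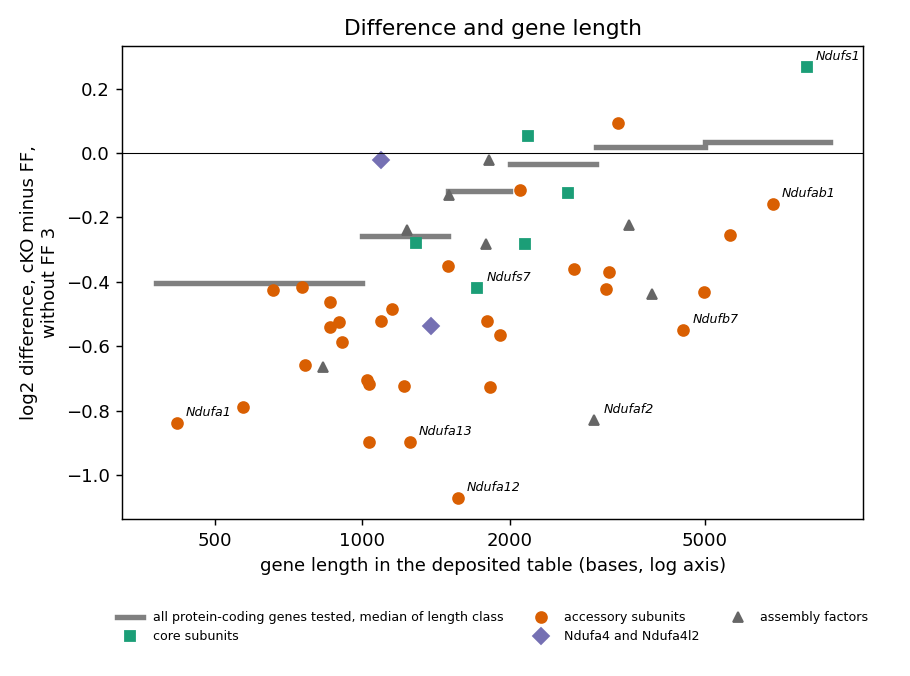
Log2 difference, cKO minus FF, without FF 3, against gene length in bases (log axis) for 46 tested genes (squares, core; circles, accessory; diamonds, Ndufa4 and Ndufa4l2; triangles, assembly factors); grey bars are medians of all tested protein-coding genes by length class, and the outer classes are open-ended. Most accessory subunits lie below the grey bar of their own class, and Ndufs1 lies highest.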

How the data were processed

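Hearts were profiled from total RNA with the Ovation Ultralow V2 library kit, as the labels state. The authors deposited FPKM values for each gene, per the file headers. The tools in the submitters' processing notes are TopHat2 2.0.13, Subread, featureCounts, FastQC and edgeR, and the builds are mm10, GRCm39 and GRCh38; no role is attached to them. Neither the strand setting nor the library scaling is stated, so overlapping genes may share reads: 18 of the 47 tested genes overlap another gene with a mean of 1 FPKM or more, and Ndufa12, Ndufab1, Ndufb4, Ndufs6, Ndufs5 and Ndufa11 have copies elsewhere. FPKM times length gave whole reads (100% within 0.1, checked below 200 reads), from which depth was read.

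Tests used limma 3.58.1 (R 4.3.3) on log2 values of FPKM with a pseudocount of 1, a scale that understates the change of low genes, with a variance trend and group as the only term. The filter kept a mean of 1 FPKM or more across the libraries fitted, which left 47 of the 48 members. The values of 1 tested member are not reported here; it enters the counts and medians only. Genes were named by rule: the 12 largest changes past the threshold without FF replicate 3, the core subunits, every Ndufaf gene, the highest and lowest levels and the extremes of each module; Ndufs6, Ndufa6, Ndufv3, Ndufb5 and Ndufb7 were added as called genes, and Kdm5b as the check. Members, lists and modules were chosen with earlier results of these data known. On simulated libraries, 96% of 2-fold changes were recovered with 6 libraries (14 false calls among 12718 genes) and 86% without FF replicate 3 (27 among 12738). Apart from the planted changes, the simulated libraries shared a common mean and spread for each gene, with no library set apart as FF replicate 3 was. These rates therefore check the code and do not measure the power or the rate of false calls in these data. Same-numbered samples did not deviate together throughout, with correlations of 0.383 and 0.239 for replicates 1 and 3 and -0.238 for replicate 2. Those of differing numbers ran from -0.424 to 0.349. The labels state no pairing, so replicate numbers were not used as pairs. Alternatives covered pseudocounts, filters, scalings, GC content and left-out libraries.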

Additional observations from a re-analysis of the deposited data

How the results depend on the processing

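With 6 libraries, 0 subunits and 0 assembly factors passed under every alternative except leaving out FF replicate 3, which gave 19 and 2; over the left-out libraries the counts ran from 0 to 19 and from 0 to 2. Without FF replicate 3, the 19 subunits became 0 with no filter, and 0 to 25 with a further library left out; the 2 assembly factors became 0 with no filter, 1 with a mean FPKM of at least 5 and 0 to 3 with a further library left out. The cause was not tested. With the replicate number as a block, 1 subunit and 1 assembly factor passed. The labels do not state this pairing, and it leaves cKO replicate 3 without a partner. Quantile normalization gave 15 subunits and protein-coding genes alone 22. The subunit median was below 0 under every alternative run, from -0.46 to -0.26 with a library left out of 6 and -0.56 to -0.38 with one left out of 5. The assembly factor median ran from -0.26 to 0.0226 with a library left out of 6, the highest without FF replicate 1, and from -0.42 to -0.17 with one left out of 5.

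Single genes changed sign with 6 libraries, most of them near 0, but also Ndufa12, which was at -0.46 in the main fit. Ndufv1 was at 0.0058 with median-ratio scaling. With quantile normalization Ndufv1, Ndufa10, Ndufab1 and Ndufaf1 were at 0.157, 0.111, 0.0513 and 0.0322. With GC content in the fit Ndufv1, Ndufa10 and Ndufaf3 were at 0.0655, 0.0134 and 0.0315. With a library left out, Ndufv1 ran from -0.1227 to 0.069, Ndufab1 from -0.159 to 0.0954, Ndufaf1 from -0.1503 to 0.02, Ndufaf3 from -0.0774 to 0.0042, Ndufaf4 from -0.4389 to 0.1571, Ndufaf5 from -0.2834 to 0.0251, Ndufaf6 from -0.2404 to 0.0787, Ndufaf7 from -0.2249 to 0.2349, Ndufa12 from -1.0708 to 0.15 and Ndufa10 from -0.1402 to 0.092.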

Other observations

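Ndufa12, singled out after its values were seen, was lowest in cKO replicate 3 and FF replicate 3, which were also the libraries with the most reads of Y-linked genes. Eif2s3y was at 0.195, 0 and 19.5 FPKM in cKO replicates 1, 2 and 3 and at 0, 0 and 4.02 FPKM in FF replicates 1, 2 and 3. Xist was at 63.0, 27.1 and 0.0744 FPKM in cKO hearts and at 61.6, 54.3 and 0.00873 FPKM in FF hearts. The processed copy Ndufa12-ps, on chromosome 5, was at 39.8, 52.4 and 53.6 FPKM in cKO hearts and at 62.9, 49.8 and 169 FPKM in FF hearts. The copy was highest in FF replicate 3, and among the cKO libraries in cKO replicate 3. Whether reads were shared between the gene and its copy was not tested.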
